A study of Mus musculus with 6 samples.

Results

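Laminins, nidogens and perlecan are the large secreted glycoproteins of basement membranes, the thin sheets of matrix that in the brain wrap blood vessels and line the pial surface. The 10 genes described here were taken by symbol from the gene counts: the laminin alpha chains Lama1, Lama2, Lama4 and Lama5, the beta chains Lamb1 and Lamb2, the gamma chain Lamc1, the nidogens Nid1 and Nid2, and Hspg2, which encodes perlecan. They are 10 of the 54429 genes counted, and all 10 passed the filter on low counts, which kept 20409 genes.

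RNA was sequenced from the prefrontal cortex (PFC) of mice in 3 groups, with 2 libraries per group. The WT + vehicle mice are labelled with a C57BL/6 x C3H genotype, and the other groups were PS19(P301S) mice, called P301S Tau mice here, which carry a mutant human tau transgene driven by the mouse prion protein promoter. One Tau group received vehicle and the other received UNC0642, an inhibitor of the histone methyltransferases EHMT1 and EHMT2, which write the H3K9me2 mark of silent chromatin, at 1 mg/kg once daily for 3 days. The design text gives an age of 6 months for all mice. No WT mice given UNC0642 were sequenced in the libraries used here, and the tissue was a bulk lysate, in which fewer cells of a type and less RNA per cell cannot be told apart.

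A laminin molecule is a cross-shaped trimer of 1 alpha, 1 beta and 1 gamma chain. Its short arms join other laminins into a network, and the end of the alpha chain binds receptors such as integrins and dystroglycan on cells. Nidogens bind the laminin gamma chain encoded by Lamc1 and connect it with type IV collagen, and perlecan, a heparan sulfate proteoglycan, links these networks and holds growth factors. Around brain vessels, laminins with the alpha chains of Lama4 and Lama5 are known mainly as products of endothelial cells, whereas those with the chains of Lama1 and Lama2 belong more to the meningeal and astrocyte side.

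Total counts ran from 17005664 to 28972176 per library, and expression is given as CPM, the counts scaled to library size after TMM correction. The labels did not account for all differences between libraries. Counts of Xist, expressed in females, and of the Y-linked gene Ddx3y followed the female pattern in WT replicate 2 and both Tau + vehicle libraries, and the male pattern in WT replicate 1 and both Tau + UNC0642 libraries. The drug comparison therefore coincided with sex-linked expression, and the 2 cannot be told apart in it. Prnp, whose promoter drives the tau transgene, was at 1652 CPM in the library labelled WT replicate 1 and at 873 CPM in WT replicate 2, against 1470 to 1694 CPM in the Tau libraries. Fold changes that involve WT, and some calls, are therefore also given without the library labelled WT replicate 1.

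Where laminin and nidogen meet can be read in the Lamc1 transcript. The line below holds coding bases of Lamc1 in GENCODE M21, with the 7 codons of the nidogen-binding residues, 831 to 837 of the 1607-residue translation, in capitals. It is shown because it is the contact between a chain that did not pass the test and binding partners whose RNA was lower in Tau mice.
Lamc1: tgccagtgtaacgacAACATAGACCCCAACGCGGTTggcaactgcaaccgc
The same residues were not found in the translations of the other 9 genes or of Lama3, Lamb3 and Lamc3.

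RefSeq promoter windows on GRCm38.p6 were at hand for Lama2, Lama5, Lamb1, Lamb2, Nid1 and Hspg2, which is 6 of the 10 genes; Lama1, Lama4, Lamc1 and Nid2 had no entry. Shown 5′ to 3′ are the windows of 3 genes that were lower in Tau mice (Hspg2, Lama5, Nid1) and of Lamb1, which did not pass the test. Capitals mark GGGCGG on either strand, the core of the GC box. The windows are at chr4:137468553-137468768 on the plus strand for Hspg2, chr2:180225860-180226109 on the minus strand for Lama5, chr13:13437352-13437550 on the plus strand for Nid1 and chr12:31265043-31265233 on the plus strand for Lamb1.
Hspg2: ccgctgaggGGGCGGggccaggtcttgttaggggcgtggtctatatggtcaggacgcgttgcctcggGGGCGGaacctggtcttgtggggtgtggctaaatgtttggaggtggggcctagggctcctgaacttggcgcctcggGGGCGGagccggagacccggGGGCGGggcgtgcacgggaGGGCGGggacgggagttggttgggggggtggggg
Lama5: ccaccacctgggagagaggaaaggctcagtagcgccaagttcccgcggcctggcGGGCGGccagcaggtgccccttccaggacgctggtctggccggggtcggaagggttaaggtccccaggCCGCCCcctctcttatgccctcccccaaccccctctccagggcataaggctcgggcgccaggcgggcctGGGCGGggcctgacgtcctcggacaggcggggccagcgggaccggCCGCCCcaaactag
Nid1: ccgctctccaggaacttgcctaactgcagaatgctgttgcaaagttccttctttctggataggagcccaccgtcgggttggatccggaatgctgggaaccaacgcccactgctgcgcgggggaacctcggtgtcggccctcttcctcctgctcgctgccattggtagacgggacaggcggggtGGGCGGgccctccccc
Lamb1: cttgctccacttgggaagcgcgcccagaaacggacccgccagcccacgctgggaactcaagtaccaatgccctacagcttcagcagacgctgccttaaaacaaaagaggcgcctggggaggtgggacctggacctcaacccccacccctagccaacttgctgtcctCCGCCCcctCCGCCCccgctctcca
The GGGCGG motif occurred 5 times in the window of Hspg2, 4 times in that of Lama5, 2 times in that of Lamb1 and 1 time in that of Nid1, and it is present in 32.7% of 32851 mouse promoter windows of 250 bases. Neither TATAAA, the TATA box, nor CACGTG, the E-box, was present in these windows on either strand, whereas 12.4% and 6.02% of all windows hold them. Motifs and CG pairs were counted over the full 250 bases before each start, also where the stretch shown is shorter. These 250 bases held 20 CG pairs in Hspg2, 19 in Lama5, 16 in Nid1 and 14 in Lamb1. The median over all promoter windows was 6. Windows of Lamb2 and Lama2, which were not called between Tau and WT mice, are not printed. Over their 250 bases they held no GGGCGG, with 3 CG pairs in Lamb2 and 0 in Lama2. These counts are a description only.

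To see which chains the tissue expressed, levels were compared per kilobase of exon (CPM per kb). In WT mice, Lamc1 was highest at 4.42 ± 0.025 CPM per kb (SD, n = 2), followed by Lamb2 at 4.17 ± 0.61 and Lamb1 at 2.86 ± 0.32. The alpha chains were lower, with Lama2 at 1.54 ± 0.16, Lama4 at 1.43 ± 0.27, Lama5 at 0.97 ± 0.23 and Lama1 at 0.73 ± 0.21 CPM per kb. Nid1 was at 1.12 ± 0.15, Nid2 at 0.55 ± 0.11 and Hspg2 at 0.54 ± 0.033 CPM per kb. In this order the 2 WT libraries of Lamc1 and Lamb2 overlapped, as did those of Lama2 and Lama4, of Nid1 and Lama5, of Lama5 and Lama1, of Lama1 and Nid2, and of Nid2 and Hspg2. Lamb1 lay apart from Lamb2 above it and from Lama2 below it. Hspg2 was also the lowest of the 10 in the Tau + vehicle libraries, at 0.22 ± 0.022 CPM per kb, and in the Tau + UNC0642 libraries, at 0.35 ± 0.028.

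**Figure D1:**
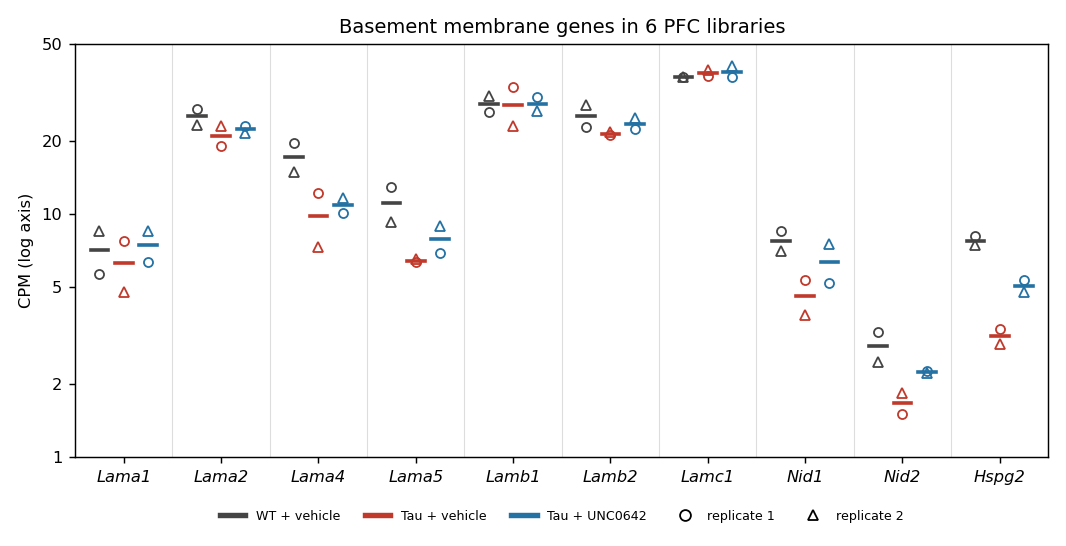
CPM of each gene (log axis) in the 6 libraries, with circles for replicate 1, triangles for replicate 2 and a bar for the group mean. Hspg2, Lama4, Lama5, Nid1 and Nid2 lie lower in both Tau + vehicle libraries than in both WT libraries, as do Lama2 and Lamb2 by narrow margins. Lamc1 stays between 36.4 and 40.4 CPM in all 6.

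The first comparison asked how the basement membrane genes differed between P301S Tau and WT mice. Perlecan, both nidogens and the alpha chains Lama4 and Lama5 were down-regulated in the Tau mice to 0.408 to 0.597 of the WT level, and none of the 10 genes was up-regulated. The beta chains, the gamma chain and the alpha chains Lama1 and Lama2 did not pass the test. A gene was called when its p was under 0.05 and its fold change 1.2 or more in edgeR's quasi-likelihood test, which is the threshold the study used, and this unadjusted threshold was passed downward by 6.10% and upward by 3.72% of all genes tested. With Benjamini-Hochberg adjustment over all genes, 0 of the 10 had an adjusted p under 0.05 in edgeR's test, against 0.157% of all genes, and 1 did in DESeq2's Wald test, Hspg2 at 0.0037. The median log2 fold change of the 10 genes was -0.50, beside -0.00011 over all genes. In the same comparison the medians were -0.33 for markers of endothelial cells and -0.53 for markers of meningeal and perivascular fibroblasts, and their part in the result was not tested.

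Perlecan showed the largest difference of the 10. Hspg2 was at 8.08 and 7.42 CPM in WT replicates 1 and 2, at 3.36 and 2.92 CPM in the Tau + vehicle libraries, and at 5.33 and 4.76 CPM in the Tau + UNC0642 libraries. The 3 groups did not overlap, with WT highest and Tau + vehicle lowest. The log2 fold change between Tau and WT was -1.29 (SE 0.208, 95% interval -1.76 to -0.83), with an adjusted p of 0.0529 in edgeR's test with Benjamini-Hochberg adjustment. Without the library labelled WT replicate 1 it was -1.23, and the gene was still called. Hspg2 lies at chr4:137468769-137570630 on GRCm38 and has the longest coding sequence among the 10 genes. It is also on a list that the study drew from these same libraries, so its direction is not independent evidence.

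Of the alpha chains, Lama4 is a short-armed form that is typical of vessel walls. It was at 19.5 and 14.9 CPM in the WT libraries, 12.2 and 7.33 CPM in Tau + vehicle, and 10.1 and 11.6 CPM in Tau + UNC0642. Both WT libraries lay above the other 4. The log2 fold change between Tau and WT was -0.80 (SE 0.226, 95% interval -1.30 to -0.29), with a Benjamini-Hochberg adjusted p of 0.258 in edgeR's test. The replicates of Tau + vehicle differed widely, with 342 and 128 counts. Without the library labelled WT replicate 1 the value was -0.59, past the same threshold.

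Lama5 encodes the alpha chain of the laminin that marks mature vessels. It was at 12.9 and 9.22 CPM in WT, 6.33 and 6.53 CPM in Tau + vehicle, and 6.93 and 8.91 CPM in Tau + UNC0642. WT lay above both other groups, and the Tau + vehicle libraries were close to each other. The log2 fold change between Tau and WT was -0.78 (SE 0.207, 95% interval -1.24 to -0.32), with a Benjamini-Hochberg adjusted p of 0.239 in edgeR's test. Without the library labelled WT replicate 1 it was -0.52, also past the threshold.

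Lama2, the alpha chain missing in merosin-deficient muscular dystrophy, was the most abundant alpha chain per kilobase among the 4. It was at 27.0 and 23.3 CPM in WT, 19.1 and 23.0 CPM in Tau + vehicle, and 23.0 and 21.5 CPM in Tau + UNC0642. The WT libraries lay above the others by a narrow margin, and the log2 fold change between Tau and WT of -0.27 (95% interval -0.56 to 0.03) did not pass the test, with a Benjamini-Hochberg adjusted p of 0.439 in edgeR. Lama2 did pass when scaled by library size alone (-0.33), without WT replicate 2 (-0.37) and without Tau replicate 2 (-0.40), and with libraries left out it ranged from -0.40 to -0.13, with -0.16 for the library labelled WT replicate 1. Lama1, the alpha chain of the earliest embryonic basement membranes, ranged from 4.75 to 8.51 CPM, and its Tau and WT libraries overlapped. The log2 fold change of Lama1 was -0.16 (95% interval -0.78 to 0.46), it was above 0 when WT replicate 2 or Tau replicate 2 was left out, and it was -0.43 without the library labelled WT replicate 1.

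None of the shared beta and gamma chains passed the test between Tau and WT mice. Lamc1, the gamma chain of most laminins, was at 36.4 and 36.7 CPM in WT, 36.8 and 39.2 CPM in Tau + vehicle, and 36.4 and 40.4 CPM in Tau + UNC0642. Tau and WT differed in Lamc1 by a log2 fold change of 0.05 with a 95% interval from -0.17 to 0.28. This interval does not reach the estimates for Hspg2, Lama4, Lama5 or the nidogens, but it overlaps the interval given below for Nid2. Whether Lamc1 differed from these genes was not tested. Scaled by library size alone, the Lamc1 value was -0.014, and without the library labelled WT replicate 1 it was 0.05. Lamb1, the beta chain widespread in the embryo, spread more within a group than between groups, from 23.0 to 33.1 CPM in the Tau + vehicle libraries alone. For Lamb1 the log2 fold change was -0.0099 (95% interval -0.38 to 0.36), it turned positive when WT replicate 2 or Tau replicate 2 was left out, and it was -0.12 without the library labelled WT replicate 1. Lamb2, the beta chain of vessel walls and synapses, was at 22.7 and 28.0 CPM in WT, 21.1 and 21.8 CPM in Tau + vehicle, and 22.3 and 24.7 CPM in Tau + UNC0642. The difference of -0.25 (95% interval -0.53 to 0.04) missed the threshold, and without the library labelled WT replicate 1 it was -0.39 and passed it.

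Both nidogens were lower in Tau mice, at smaller counts than the beta and gamma chains. Nid1 was at 8.48 and 7.03 CPM in WT, 5.33 and 3.84 CPM in Tau + vehicle, and 5.21 and 7.50 CPM in Tau + UNC0642. Tau + vehicle lay below WT, and Tau + UNC0642 spanned the gap between them. Between Tau and WT its log2 fold change was -0.74 (SE 0.244, 95% interval -1.28 to -0.20), with a Benjamini-Hochberg adjusted p of 0.302 in edgeR's test. Nid2 was at 3.27 and 2.46 CPM in WT, 1.50 and 1.83 CPM in Tau + vehicle, and 2.25 and 2.21 CPM in Tau + UNC0642. The 3 groups did not overlap, with Tau + UNC0642 in the middle. Its log2 fold change was -0.79 (SE 0.310, 95% interval -1.48 to -0.10), with a Benjamini-Hochberg adjusted p of 0.361 in edgeR's test. Nid2 had the fewest reads of the 10 genes, with 32 counts in Tau replicate 2, for which an exact Poisson interval of 95% runs from 21.9 to 45.2 counts and covers counting error only. Without the library labelled WT replicate 1 neither nidogen passed the test, with log2 fold changes of -0.60 for Nid1 and -0.58 for Nid2. Leaving out Tau replicate 2 also ended the call for Nid1 (-0.54), and leaving out Tau replicate 1 that for Nid2 (-0.64). With a term for sex-linked expression, neither nidogen passed (-0.60 for Nid1 and -0.57 for Nid2). Like leaving out the library labelled WT replicate 1, that term sets Tau + vehicle against WT replicate 2.

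Counted by groups that did not overlap, 7 of the 10 genes were lower in both Tau + vehicle libraries than in both WT libraries, beside 21.4% of all genes tested. They were the 5 called genes with Lama2 and Lamb2, and 1 gene, Lamc1, was higher, beside 21.9% of all genes. Without the library labelled WT replicate 1, the median log2 fold change of the 10 was -0.48. Lama4, Lama5 and Hspg2 were called in all 12 alternative fits run for single genes, including a fit with a term for sex-linked expression. Both Tau + vehicle libraries had the female pattern, so with that term they are set against WT replicate 2. The fit with this term is therefore no separate check from leaving out the library labelled WT replicate 1.

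Laminin RNAs were also summed over chains of a kind. The 5 alpha chains, Lama3 included, summed to 6.89 and 6.23 CPM per kb in WT, to 4.85 and 4.55 in Tau + vehicle, and to 4.81 and 5.56 in Tau + UNC0642. Both WT libraries lay above the other 4. The beta chains summed to 6.79 and 8.04 CPM per kb in WT and to 7.20 and 6.31 in Tau + vehicle. In Tau + UNC0642 they summed to 7.01 and 7.02. WT and Tau + vehicle overlapped in the beta chains only through the library labelled WT replicate 1. WT replicate 2 lay above all Tau libraries in the alpha and in the beta sums. These sums are a description without a test.

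**Figure D2:**
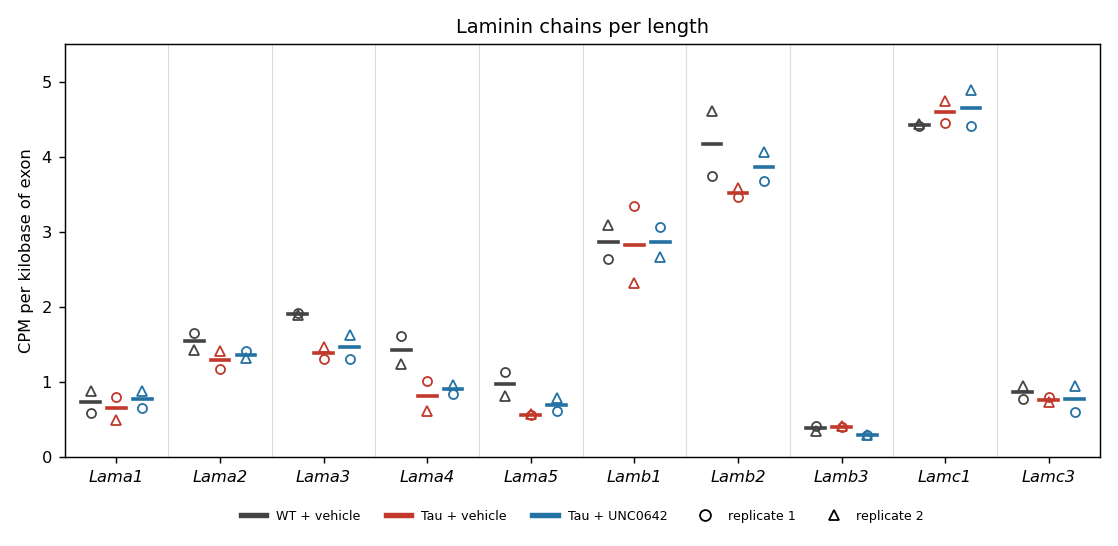
CPM per kilobase of exon for 10 laminin chains, with circles and triangles for replicates 1 and 2 and bars for group means. Lamc1, Lamb2 and Lamb1 carry the highest levels, and Lama2, Lama3, Lama4, Lama5 and Lamb2 lie lower in both Tau + vehicle libraries than in both WT libraries.

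The second comparison asked what 3 days of UNC0642 changed in Tau mice. Perlecan was the 1 gene of the 10 that was called, and it was up-regulated, beside 3.73% of all genes called higher and 3.95% called lower. The other 9 did not pass the test. None of the 10 had a Benjamini-Hochberg adjusted p under 0.05 in edgeR's test or DESeq2's Wald test, beside 0.0196% of all genes in edgeR's. The median log2 fold change of the 10 was 0.19, beside -0.0024 over all genes. This comparison shares its Tau + vehicle libraries with the first one, so that a chance low value there lowers the first difference and raises the second.

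Hspg2 was higher in both Tau + UNC0642 libraries, at 5.33 and 4.76 CPM, than in both Tau + vehicle libraries, at 3.36 and 2.92 CPM. The log2 fold change was 0.67 (SE 0.214, 95% interval 0.20 to 1.15), with a Benjamini-Hochberg adjusted p of 0.432 in edgeR's test. The call ended without Tau replicate 2 (0.58) and with a term for sex-linked expression (0.55). That term rests on the 2 WT libraries alone, since each Tau group had a single pattern.

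The nidogens had the next largest values, 0.47 for Nid1 (95% interval -0.09 to 1.02) and 0.43 for Nid2 (-0.28 to 1.14). Nid1 passed the test when Tau replicate 1 was left out (0.74) and when UNC0642 replicate 1 was left out (0.70). Lama5 differed by 0.31 (-0.16 to 0.78) and Lama1 by 0.24 (-0.39 to 0.86). Lama4, which was low in Tau mice, differed by 0.14 after UNC0642 with an interval from -0.38 to 0.65, and it passed the test (0.57) only when Tau replicate 1 was left out. Lamb2 differed by 0.14 (-0.15 to 0.43), Lama2 by 0.09 (-0.21 to 0.38), Lamc1 by 0.02 (-0.21 to 0.24) and Lamb1 by 0.0073 (-0.37 to 0.38). With the sex-linked term, Lama2, Lama4 and Lama5 turned negative and Lamb2 passed the test (0.44). Under this term Nid1 was at 0.20 and Nid2 at 0.019, and Lama1, at 0.83, had the largest value of the 10, though it was not called. In 4 of the 10 genes, Lama5, Lamb2, Nid2 and Hspg2, both Tau + UNC0642 libraries lay above both Tau + vehicle libraries, beside 20.4% of all genes tested.

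The third comparison set UNC0642-treated Tau mice against WT mice, to show where their levels stood. Lama4, Lama5 and Hspg2 were lower in the treated Tau mice, 3 of the 10 genes beside 5.69% of all genes called lower, and none of the 10 was higher, beside 3.77%. The log2 fold changes were -0.66 for Lama4 (SE 0.226, 95% interval -1.16 to -0.16), -0.47 for Lama5 (SE 0.205, -0.93 to -0.02) and -0.62 for Hspg2 (SE 0.202, -1.07 to -0.17). Their Benjamini-Hochberg adjusted p-values in edgeR's test were 0.292, 0.396 and 0.273, and 0 of the 10 genes were under 0.05 in this test or in DESeq2's, beside 0.216% of all genes in edgeR's. Nid1 at -0.28 (95% interval -0.81 to 0.26) and Nid2 at -0.36 (-1.04 to 0.31) did not pass, nor did the other 5 genes, which ranged from -0.18 for Lama2 to 0.08 for Lama1. In 5 of the 10, Lama2, Lama4, Lama5, Nid2 and Hspg2, both treated libraries lay below both WT libraries, beside 22.3% of all genes tested. The median of the 10 was -0.23, beside -0.012 over all genes.

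All 3 calls of this comparison depended on the library labelled WT replicate 1. Without it the log2 fold changes were -0.45 for Lama4, -0.21 for Lama5 and -0.56 for Hspg2, and the median of the 10 was -0.17. Only 1 WT library then remained. The other 7 genes then ranged from -0.25 for Lamb2 to 0.07 for Lamc1, and Lama1 was at -0.19. Without UNC0642 replicate 1, Hspg2 alone was called, as Lama4 (-0.57) and Lama5 (-0.31) were not, and without UNC0642 replicate 2 Hspg2 was not called (-0.54).

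**Figure D3:**
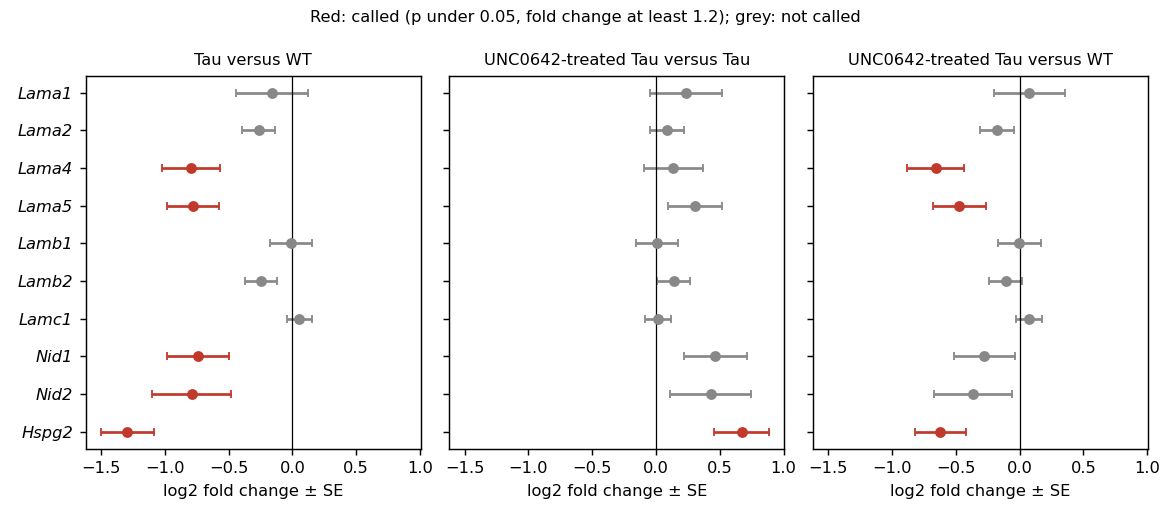
Log2 fold change with its standard error for each of the 10 genes in the 3 comparisons, red where called (p under 0.05, fold change 1.2 or more). From Tau versus WT to UNC0642-treated Tau versus WT, Hspg2 goes from -1.29 to -0.62, and Lamb1 and Lamc1 lie near 0 in all 3 panels, which share libraries.

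The other genes of the basement membrane pathway were followed in 4 lists. Among laminin chains outside the 10 genes, Lama3 was lower in Tau mice, with 20.5 and 20.3 CPM in WT, 14.1 and 15.8 CPM in Tau + vehicle and 14.0 and 17.5 CPM in Tau + UNC0642. The log2 fold change of Lama3 was -0.45 (SE 0.140) between Tau and WT mice and -0.37 between UNC0642-treated Tau and WT mice, with Benjamini-Hochberg adjusted p-values of 0.284 and 0.331 in edgeR's test. These values became -0.45, still called, and -0.36, not called, without the library labelled WT replicate 1. Lamb3 and Lamc3 were not called in any of the 3 comparisons. Lama3, best known from skin laminin, was thus the third alpha chain RNA that was lower in Tau mice.

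The list of 17 other basement membrane components had a median of -0.43 between Tau and WT mice. Of the 17, 4 were lower and 0 higher in Tau mice, beside 6.10% and 3.72% of all genes. They were the heparan sulfate proteoglycan agrin (Agrn, log2 fold change -0.27), the type IV collagen chains Col4a4 (-1.59) and Col4a2 (-0.38), and the laminin-binding netrin Ntn4 (-0.43), with Benjamini-Hochberg adjusted p-values from 0.299 to 0.394 in edgeR's test. Col4a4 had 26 and 27 counts in WT and 12 and 4 in Tau + vehicle, and Col4a2, like Hspg2, is on the study's list from these libraries. When the library labelled WT replicate 1 was left out, Agrn kept its call (-0.29), Col4a4 (-1.62), Col4a2 (-0.27) and Ntn4 (-0.21) were not called, Sparc, a collagen-binding protein, was called higher (0.44), and the median was -0.27. After UNC0642, Col4a1, the main partner of Col4a2, was higher (0.37) and Sparc was lower (-0.32), and the list's median was 0.18. Between UNC0642-treated Tau and WT mice, Ntn4 (-0.70) and Smoc1 (-1.03) were lower and Tinagl1 (0.69) was higher, with a median of -0.20. Smoc1 lay between 4.10 and 6.26 CPM in 5 libraries and above them, with 305 counts, in the library labelled WT replicate 1. Without that library, Ntn4 was still lower (-0.48), Smoc1 (-0.42) and Tinagl1 (0.50) were not called, and the median was -0.22.

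Genes on the cell side of the membrane were counted in the same way. Between Tau and WT mice 6.10% of all genes were called lower and 3.72% higher. These shares were 3.95% and 3.73% after UNC0642, and 5.69% and 3.77% between UNC0642-treated Tau and WT mice. Of 10 laminin receptors, Bcam, which binds the alpha chain of Lama5, was lower in Tau mice (-0.38), the other 9 were not called, and the median was -0.06. Without the library labelled WT replicate 1, Bcam was at -0.43 and lost its call, and the median was -0.029. None of the 10 receptors was called after UNC0642 or between UNC0642-treated Tau and WT mice, where the medians were 0.02 and -0.02, the latter 0.014 without the library labelled WT replicate 1. Of the 10 enzymes that build the laminin-binding glycan of dystroglycan, 0 were called between Tau and WT mice or after UNC0642, with medians of 0.01 and -0.04. Between UNC0642-treated Tau and WT mice 1 of these 10 enzymes was lower and 0 were higher, with a median of -0.04. Without the library labelled WT replicate 1, the enzyme medians were -0.0022 between Tau and WT mice and -0.014 between UNC0642-treated Tau and WT mice. Whether these lists differ from the 10 genes was not tested.

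**Figure D4:**
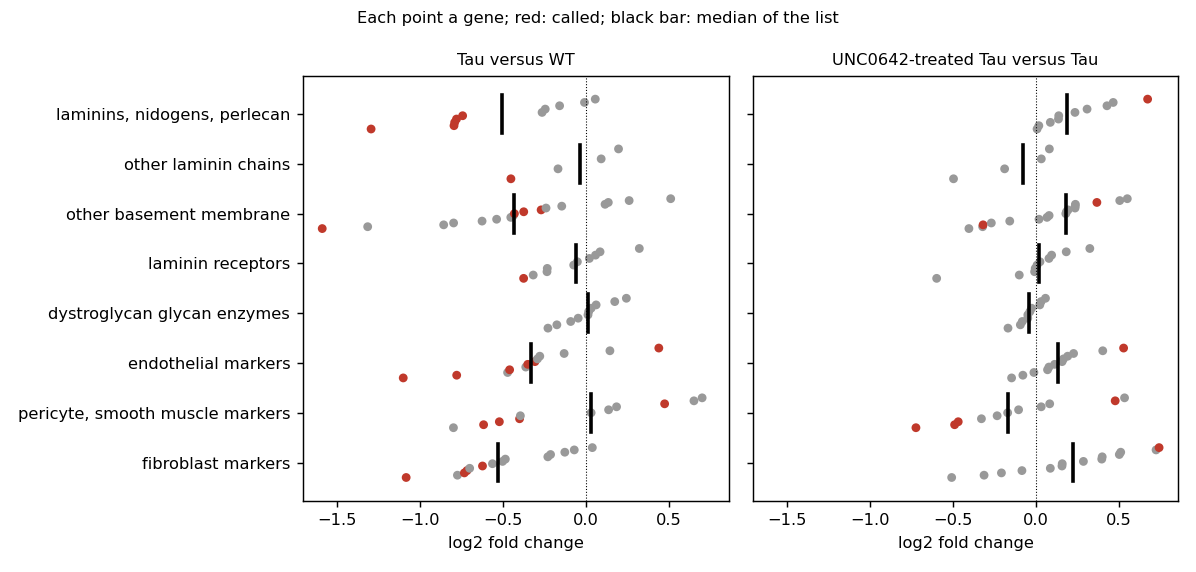
Log2 fold change of each gene tested, grouped by list, between Tau and WT mice and between UNC0642-treated and untreated Tau mice, with called genes in red and the list median as a black bar. Between Tau and WT mice the medians are -0.50 for laminins, nidogens and perlecan, -0.43 for other basement membrane components, -0.33 for endothelial and -0.53 for fibroblast markers.

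Markers of the vascular and meningeal cells that make basement membranes were counted beside the 10 genes. Of all genes tested, 6.10% were called lower and 3.72% higher between Tau and WT mice. These shares were 3.95% and 3.73% after UNC0642, and 5.69% and 3.77% between UNC0642-treated Tau and WT mice. Of 12 endothelial markers, 5 were lower in Tau than in WT mice (Cldn5, Flt1, Tek, Kdr, Abcb1a) and 1 was higher (Slc2a1), with a median of -0.33, and the marker genes are named here after their values were seen. Their summed level was 237 to 243 CPM in WT, 207 to 208 CPM in Tau + vehicle and 197 to 252 CPM in Tau + UNC0642. Cldn5, a tight junction protein of brain endothelium, was at 26.1 and 18.5 CPM in WT, 10.5 and 10.3 CPM in Tau + vehicle and 13.9 and 16.0 CPM in Tau + UNC0642. This is the same order of groups as for Hspg2. Both genes are on a list that the study drew from these same libraries, so the shared order is not independent evidence. Of 14 fibroblast markers tested from a list of 15, 4 were lower (Col3a1, Slc6a13, Slc13a4, Foxd1) and 0 higher, with a median of -0.53 and sums of 72.5 and 119 CPM in WT, 77.9 and 59.6 CPM in Tau + vehicle, and 80.3 and 79.7 CPM in Tau + UNC0642. Of 11 pericyte and smooth muscle markers, 3 were lower (Pdgfrb, Vtn, Notch3) and 1 higher (Abcc9), with a median of 0.03 and sums of 232 to 236 CPM in WT, 213 to 218 CPM in Tau + vehicle and 191 to 198 CPM in Tau + UNC0642. None of the genes of these 3 lists was at 0 in any library. After UNC0642, 1 endothelial marker (Cldn5) and 1 fibroblast marker (Col3a1) were higher and none of either list was lower. Of the pericyte and smooth muscle markers, 3 were lower (Abcc9, Acta2, Myh11) and 1 was higher (Notch3). Notch3 and Abcc9 are also on the study's lists of reversed genes from these libraries, so their directions are not independent evidence. Between UNC0642-treated Tau and WT mice, 3 endothelial markers were lower and 1 higher, 1 fibroblast marker was lower and 0 higher, and 2 pericyte and smooth muscle markers were lower and 1 higher. With the library labelled WT replicate 1 left out, the medians between Tau and WT mice were -0.33 for endothelial and -0.89 for fibroblast markers. That of pericyte and smooth muscle markers was -0.017. Between UNC0642-treated Tau and WT mice, the medians without it were -0.22 for endothelial, -0.69 for fibroblast and -0.23 for pericyte and smooth muscle markers. The part of these cells in the values of the 10 genes was not tested.

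**Figure D5:**
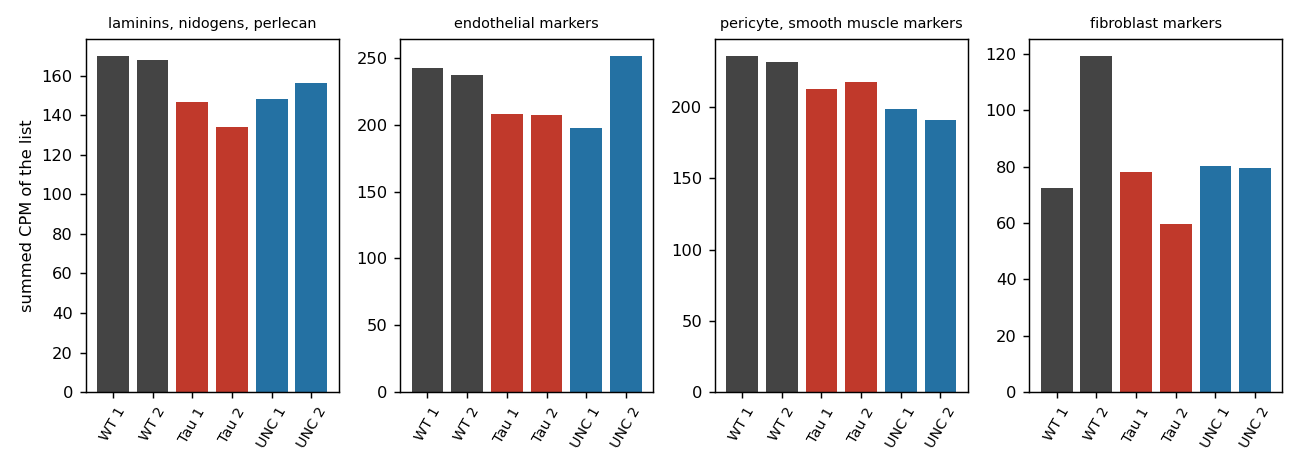
Summed CPM in each library of the 10 genes and of the endothelial, pericyte with smooth muscle, and fibroblast markers, with WT in grey, Tau + vehicle in red and Tau + UNC0642 in blue. The 10 genes sum to 168 to 170 CPM in WT, 134 to 147 CPM in Tau + vehicle and 148 to 157 CPM in Tau + UNC0642, and the fibroblast markers are highest in WT replicate 2.

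Markers of other cells moved in other ways between Tau and WT mice, where 6.10% of all genes were called lower and 3.72% higher. Oligodendrocyte markers, 3 of 7 higher, summed to 1332 to 2722 CPM in WT, 1885 to 5131 CPM in Tau + vehicle and 1952 to 2083 CPM in Tau + UNC0642, with Tau replicate 2, the library lowest in Lama1, Lama4, Lamb1, Nid1 and Hspg2, the highest. Of 7 astrocyte markers 2 were higher, of 7 microglial markers 2 were higher, and of 9 neuronal markers 0 were called, the last summing to 4562 to 4624 CPM in WT, 4968 to 4999.8 CPM in Tau + vehicle and 4719 to 4955 CPM in Tau + UNC0642. Of the choroid plexus markers, 4 of 7 were tested, with 1 lower (Aqp1) and 1 higher (Enpp2). Ttr, the defining choroid plexus gene, was at 0 counts in 4 libraries and at 6 and 24 counts in Tau + vehicle. Enpp2 was at 243 to 346 CPM over all 6 libraries, also where Ttr had 0 counts, so its call says little of choroid plexus. Aqp1 was at 9.93 CPM in the library labelled WT replicate 1 and at 0.26 to 0.71 CPM in the other 5. Without the library labelled WT replicate 1, the medians between Tau and WT mice were 1.37 for oligodendrocyte, 0.053 for astrocyte and 0.21 for microglial markers. For neuronal markers the median was then -0.027, and for the 5 choroid plexus markers tested it was 0.75. Their part in the result was not tested either.

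The 10 genes had on average a profile over the 6 libraries, as log2 CPM centred on each gene's mean, of 0.29 and 0.21 in WT, -0.16 and -0.35 in Tau + vehicle, and -0.06 and 0.07 in Tau + UNC0642. Lamb2 lay nearest to this mean profile among the 10, with a root mean square difference of 0.17, and Hspg2 farthest, at 0.33. Among 16368 other genes with a mean of at least 1 CPM, those nearest included Gm40841 (0.059), Rnf215 (0.065), Akap13 (0.070) and Pask (0.072), over the 6 libraries. This is a likeness of profiles in these libraries and says nothing of shared function. Akap13, like Hspg2, is on the study's list from these same libraries.

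Some counts carry a reservation about assignment. In GENCODE M21, exons of Lama2 overlap the antisense gene Gm48084 over 631 bases, exons of Nid1 overlap the antisense gene Gm48682 over 143 bases, and exons of Nid2 overlap the protein-coding gene Rtraf on the opposite strand over 437 bases. The strand setting of the counting is not given in the sources used here, so reads from these stretches are uncertain.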

How the data were processed

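RNA of PFC tissue was sequenced in 6 libraries, 2 per group, as strand-specific libraries depleted of ribosomal RNA. The authors trimmed the reads, aligned them with TopHat2 and made read counts per gene with featureCounts, and the counts were deposited without normalization; the submitters' processing notes name mm10, SAMtools and edgeR, with no version. In 2 libraries 26 gene names had been turned into dates, so genes were joined by position after all other names were checked to agree. Groups and replicate numbers came from the sample titles.

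The deposited counts were analysed with edgeR 4.0.16 in R 4.3.3. Low counts were filtered with filterByExpr (minimum count 10, minimum total 15), library sizes were scaled by TMM (factors 0.966 to 1.04), and the counts were fitted with 1 mean per group over all 6 libraries, with 3 residual degrees of freedom. P-values came from the quasi-likelihood test of edgeR and were adjusted (Benjamini-Hochberg) over 20409 genes. SDs are between the 2 libraries of a group. P-values set the difference between groups against a spread pooled over all 6 libraries and drawn toward that of other genes. The standard error was the log2 fold change divided by the root of the test's F. A floor of 3 counts was 0.107 to 0.178 CPM. Total counts of 17005664 to 28972176 set the precision, and the biological coefficient of variation was 12.3%. Exon lengths, coordinates and overlaps came from GENCODE M21, promoter windows from RefSeq (GRCm38.p6), shown trimmed to end before the first annotated exon. Motifs and CG pairs were counted before this trimming.

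The genes and the lists were chosen with earlier results of these data known. Named besides the 10 genes were the called genes of 4 pathway lists (at most 3 per list and comparison, by smallest p, with Ntn4 and Sparc between Tau and WT mice added after their values were seen), genes nearest in profile, and Xist, Ddx3y, Mapt and Prnp as checks; markers of 8 cell types were counted by list. Of the list symbols, 2 were matched by older names. Some genes that this rule takes in are not reported here. Mapt was at 576 CPM in the library labelled WT replicate 1, at 449 CPM in WT replicate 2 and at 571 to 614 CPM in the Tau libraries. As with Prnp, the library labelled WT replicate 1 thus lay within the range of the Tau libraries. Alternatives were DESeq2 1.42.0 size factors or its Wald test, library size, no filter, the 2 compared groups alone, a replicate block, a term for sex-linked expression, adjusted p-values and leaving out each library. Values of the lists without the library labelled WT replicate 1 were added after the data were seen. The fit was tested on simulated data with 200 genes changed 3-fold. Figures were drawn with matplotlib 3.10.9 in Python 3.11.15.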

Additional observations from a re-analysis of the deposited data

How the results depend on the processing

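Of the 10 genes, 5 were called between Tau and WT mice, 1 between UNC0642-treated and untreated Tau mice and 3 between UNC0642-treated Tau and WT mice. With the adjusted p as threshold these counts became 0, 0 and 0. With no filter 2 genes were called after UNC0642, beside 3.38% of all genes called lower and 3.4% called higher. When each library was left out in turn, a lone remaining library was assumed to vary like the others. The medians of the 10 genes in these 3 comparisons then ranged from -0.62 to -0.44, from 0.11 to 0.32 and from -0.34 to -0.16. The sex-linked term moved the median after UNC0642 to 0.11 and that of UNC0642-treated Tau against WT to -0.34. Both Tau + UNC0642 libraries had the male pattern. Against WT, that term therefore sets them against the library labelled WT replicate 1. Library size scaling called 7 genes between Tau and WT mice, beside 8.54% of all genes called lower and 2.03% called higher. It shifted the median of all genes there by -0.070.

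Some small values changed sign. Between Tau and WT mice, Lamc1 was -0.014 under library size, and with libraries left out Lama1 ranged from -0.57 to 0.17 and Lamb1 from -0.31 to 0.23. Between UNC0642-treated and untreated Tau mice, the sex-linked term gave -0.13 for Lama2, -0.26 for Lama4 and -0.17 for Lama5, and with libraries left out Lama1 ranged from -0.061 to 0.65, Lama2 from -0.046 to 0.22, Lama4 from -0.17 to 0.57, Lamb1 from -0.23 to 0.30 and Lamc1 from -0.061 to 0.089. Between UNC0642-treated Tau and WT mice, Lamb1 was 0.0025 under DESeq2 size factors and 0.11 with the sex-linked term, Lamb2 was 0.050 with that term, and with libraries left out Lama1 ranged from -0.19 to 0.41, Lamb1 from -0.11 to 0.11, Lamb2 from -0.25 to 0.050 and Lamc1 from -0.0078 to 0.15. Without the library labelled WT replicate 1, an alternative added after the data were seen, the medians of lists changed sign to -0.0022 for the glycan enzymes, -0.017 for pericyte and smooth muscle and -0.027 for neuronal markers between Tau and WT mice, and to 0.014 for laminin receptors, 0.48 for oligodendrocyte and -0.015 for microglial markers between UNC0642-treated Tau and WT mice. The cause was not tested.

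The replicate numbers did not pair the libraries, which came from different mice: correlations of their deviations were -0.034, -0.021 and -0.0033. With the replicate number as a block, the counts were 5, 1 and 2, Lama5 losing its call between UNC0642-treated Tau and WT mice (-0.47). Of all genes, 5.39%, 3.51% and 5% were then called lower and 3.39%, 3.37% and 3.6% higher. Lama5 also lost it with the 2 compared groups fitted alone and in DESeq2's Wald test, where Nid2 lost its call between Tau and WT mice. Depth limits precision for Nid2, which had under 100 counts in every library, as did Col4a4, Foxd1, Lamb3 and Tinagl1. It also limits precision for Hspg2, which had 94 and 51 counts in Tau + vehicle and 90 and 108 in Tau + UNC0642.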
